A study of Arabidopsis thaliana with 4 samples.

Results

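GID1A (AT3G05120), GID1B (AT3G63010) and SLY1 (AT4G24210) are genes through which Arabidopsis thaliana perceives gibberellin, the hormone that promotes seed germination. They were chosen by name, with earlier results of these data known, so their shared direction and their ranks among all genes only describe them. Each was represented by 1 probe set paired with it alone. Thus 3 of the 16411 genes with a probe set of their own, and 3 of all 38408 probe sets, are described here. A probe set labelled ATSLY1 belongs to another locus, AT2G17980, and was not counted with SLY1. Wild-type seeds, of Ler-0, were compared with seeds of the mutant line wrky43-1, whose altered gene codes for the transcription factor WRKY43. All seeds, 10 mg per sample, had been incubated for 4 days in liquid 0.5 MS medium containing 2 µM abscisic acid, the hormone that opposes gibberellin and holds germination back, so no sample without abscisic acid serves as a baseline. There were 2 biological replicates of each genotype, hybridised to 4 arrays, and the labels do not say what the wrky43-1 lesion is or whether the mutant is in the Ler-0 background. WRKY43 itself had 0 probe sets paired with it alone, so its level was not analysed here and could not serve as a check of the genotype labels.

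Gibberellin is bound in the nucleus and cytoplasm by soluble receptors of the GID1 family, of which Arabidopsis has GID1A, GID1B and GID1C. The receptor with its hormone then holds a DELLA protein, one of a group of nuclear repressors of germination and growth. SLY1 is the F-box subunit of the ubiquitin ligase complex that recognises this assembly and marks the DELLA protein for degradation. DELLA proteins in turn raise transcripts of GID1A and GID1B, a feedback known from Arabidopsis seedlings. In seeds that lack SLY1 or the receptors, germination is strongly reduced.

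All 3 genes read higher in wrky43-1 seeds than in wild type, by 1.25-fold for GID1A, 1.26-fold for GID1B and 1.32-fold for SLY1. On each probe set both wrky43-1 arrays lay above both wild-type arrays, as they did for 21.7% of the 16411 genes measured. None of these differences passed the test across all probe sets (limma adjusted p of 0.361, 0.362 and 0.263). Levels are given below on the log2 scale, as read from the deposited values, and a difference is wrky43-1 minus wild type on that scale. A level cannot be compared between genes, because probe sets differ in how strongly they bind their transcript. The RNA came from whole seeds, so a difference in RNA per cell and a difference in the share of cells that hold the transcript cannot be told apart.

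GID1A, the first receptor gene, lies on chromosome 3. In wild type its arrays read 8.21 and 8.06, and in wrky43-1 they read 8.37 and 8.54. The lower wrky43-1 array thus lay only slightly, 0.16, above the higher wild-type array, a gap close to the distance between the wild-type arrays themselves. The group means were 8.14 ± 0.11 in wild type and 8.46 ± 0.12 in wrky43-1 (SD, n = 2 each). The difference was 0.32 with an SE of 0.14 and a 95% confidence interval from -0.05 to 0.69 (limma unadjusted p = 0.0757). The interval includes 0, so the difference was not larger than the replicate error allows to resolve.

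GID1B, the second receptor gene, also on chromosome 3, codes in Arabidopsis for a receptor with a higher affinity for gibberellin than its relatives. It read 2.996 and 2.79 in wild type and 3.15 and 3.30 in wrky43-1. Here too the groups did not overlap, but the gap between the nearest arrays was 0.15 and smaller than the distance between the wild-type arrays. Means were 2.89 ± 0.14 and 3.22 ± 0.11 (SD, n = 2 each), and the difference was 0.33 (SE 0.14, 95% confidence interval -0.05 to 0.71, limma unadjusted p = 0.0765). The values of GID1B stood between the 23.2 and the 34.8 percentile of their arrays, and without detection calls it is unknown whether this probe set measured signal above background. For GID1A the corresponding percentiles were 88.9 to 91.7.

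SLY1, the F-box gene, lies on chromosome 4. Its wild-type arrays read 4.60 and 4.56, and those of wrky43-1 read 5.06 and 4.91. The wild-type arrays were close to each other, and the gap of 0.31 to the nearest wrky43-1 array was larger than the distance between the arrays of either genotype. Means were 4.58 ± 0.027 and 4.98 ± 0.11 (SD, n = 2 each). The difference was 0.40 (SE 0.13, 95% confidence interval 0.06 to 0.74). Its limma unadjusted p of 0.0291 did not survive adjustment over all probe sets. The unadjusted p was also no longer under 0.05 in 7 of 15 alternatives, among them the replicate block (0.0503), arrays given 1 common median (0.0525), quantile normalization (0.0534), an intensity trend in the variance prior (0.0632) and 3 of the 4 fits that lacked an array (up to 0.112). The percentiles of SLY1 on the arrays were 52.5 to 56.8.

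**Figure D1:**
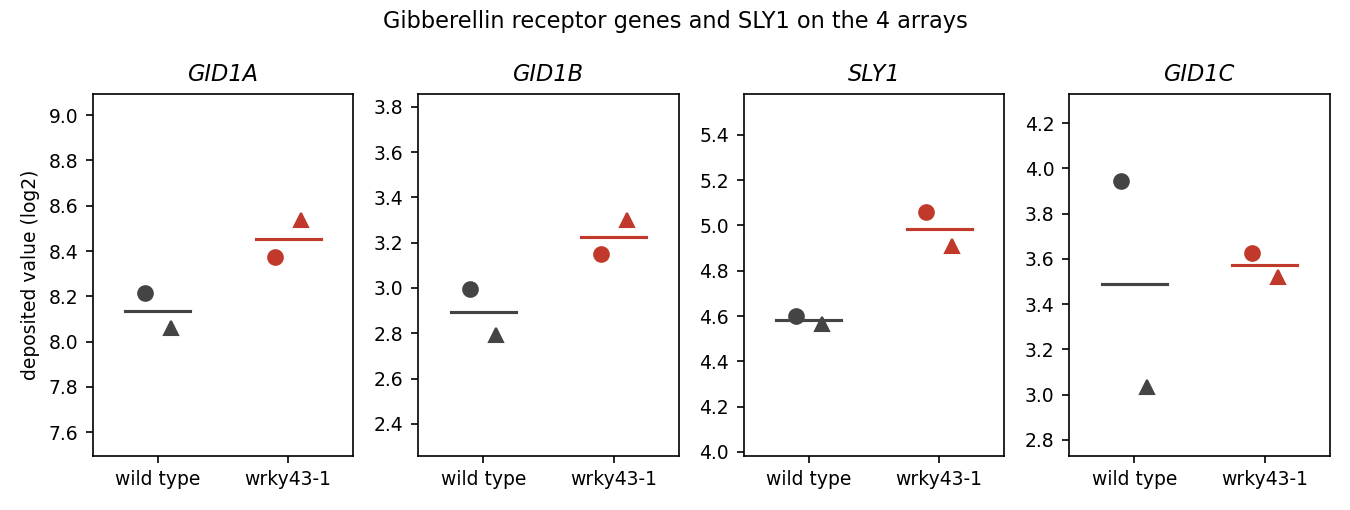
Deposited log2 values (y axis, each panel spanning 1.6 log2 units around the gene's own mean) of GID1A, GID1B, SLY1 and the related receptor gene GID1C on the 4 arrays. Circles are replicate 1, triangles replicate 2, and horizontal lines the mean of each genotype. For GID1A, GID1B and SLY1 both wrky43-1 points lie above both wild-type points, while the wild-type points of GID1C, at 3.94 and 3.03, enclose both of its wrky43-1 points.

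Differences of this kind were frequent on these arrays. Both wrky43-1 arrays lay above both wild-type arrays for 21.7% of the 16411 genes measured, and below them for 25.1%. The test across all probe sets called 1 probe set higher (0.0026%) and 0 lower, while 5.45% of the genes measured read higher and 6.1% lower at an unadjusted limma p under 0.05. Leaving out any 1 of the 4 arrays gave 0 calls in both directions. Of the 3 genes, SLY1 belongs to those higher at the unadjusted threshold as fitted, a place it lost in the alternatives named above, while GID1A reached it with the intensity trend. A larger positive difference was found for 9.72% of all genes than for GID1A, for 9.07% than for GID1B and for 5.96% than for SLY1. The differences of the 3 genes were therefore in the upper part of the distribution and not at its edge.

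The arrays of the 2 receptor genes followed one another closely, though it is unknown whether the GID1B probe set measured signal above background. After each gene's own mean was taken off, GID1A and GID1B differed by a root mean square of 0.020 over the 4 arrays, and GID1B was the 8th nearest of 16410 other genes to GID1A. Both genes were lower in wild-type replicate 2 than in replicate 1 and higher in wrky43-1 replicate 2 than in replicate 1. SLY1 had the opposite order of the wrky43-1 arrays and lay farther away, at 0.127 from GID1A and 0.128 from GID1B. Nearer to GID1A than GID1B were 7 other genes, and nearer to GID1B than GID1A were 6. At the wider limit of 0.1, 957 genes lay around GID1A, 820 around GID1B and 873 around SLY1.

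The genes with the most similar values were different for each of the 3. Nearest to GID1A were AT5G56260 (root mean square distance 0.0056 over 4 arrays), AT1G11240 (0.0058) and AT2G03390 (0.0095). Nearest to GID1B were AT2G31610 (0.015), which codes for a protein of the small ribosomal subunit, AT5G57230 (0.017) and AT1G73940 (0.017). Nearest to SLY1 were AT5G18850 (0.011), AT4G34555 (0.012), another gene of a small-subunit ribosomal protein, and AT4G31620 (0.013). These distances describe 4 arrays and carry no test.

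GID1C, the remaining receptor gene, varied widely between replicates. It read 3.94 and 3.03 in wild type and 3.62 and 3.52 in wrky43-1. The wild-type arrays differed by more than any pair of arrays for GID1A or GID1B, and the groups overlapped. Its difference was 0.08 (SE 0.33) with a 95% confidence interval from -0.81 to 0.98, which contains the differences of both other receptor genes. The value thus does not show that GID1C behaved otherwise than GID1A and GID1B, and the difference between receptor genes was not tested. Without wild-type replicate 2 its difference was -0.37, and without wild-type replicate 1 it was 0.54. SNE, also called SLY2, the close relative of SLY1 that can replace it in part in Arabidopsis, read 2.82 and 2.66 in wild type and 3.12 and 2.68 in wrky43-1. Its groups overlapped as well, and its difference was 0.16 (SE 0.20, 95% confidence interval -0.37 to 0.68). On the arrays SNE stood at percentiles 19.3 to 31.4 and GID1C at 29.6 to 45.1. Without detection calls it is unknown whether either probe set measured signal above background.

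Beyond the 3 genes, 10 of 62 further genes of gibberellin synthesis, transport, signalling and response had a probe set of their own, and 0 of 23 genes of synthesis and inactivation did. Of these 10 genes 5 read higher and 5 lower, with a median difference of 0.01, against a median of -0.01 over all genes measured, of which 7782 read higher and 8629 lower. None passed over all probe sets in either direction. At an unadjusted limma p under 0.05, 1 of the 10 was higher and 3 were lower, where 5.45% and 6.1% of all genes measured were. Both wrky43-1 arrays lay above both wild-type arrays for 1 of the 10 and below them for 4, against 21.7% and 25.1% of all genes. The median turned to -0.052 with quantile normalization and to -0.061 with centring, with 4 of the 10 reading higher in each. When wild-type replicate 2 was left out, 3 of the 10 read higher and the median was -0.37.

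The 2 measured regulators that modify DELLA proteins read lower. Of 13 further listed genes of perception and DELLA turnover 4 were measured, namely GID1C, SNE, SPY and SEC. The DELLA genes themselves had no probe set of their own, so their transcripts were not analysed. SPY, an O-fucosyltransferase that in Arabidopsis acts on DELLA proteins and restrains gibberellin responses, read 8.70 and 8.77 in wild type and 8.23 and 8.26 in wrky43-1. The replicates were close in both genotypes, and the difference was -0.49 (SE 0.12, limma adjusted p = 0.213). SEC, the related O-GlcNAc transferase that also modifies DELLA proteins, read 8.15 and 8.16 in wild type against 7.65 and 7.69 in wrky43-1, a difference of -0.48 (SE 0.11, limma adjusted p = 0.212). Both groups of arrays were again well separated. Both are long genes, of 6214 and 7020 bp from end to end in the reference TAIR10.1, and genes of 4000 to 8000 bp had a median difference of -0.18, with 9 of 1434 higher and 296 lower at an unadjusted limma p under 0.05. The part of gene length in these 2 values was not tested.

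Of DELLA partners and targets 2 were measured, and both read higher. XERICO, a RING-type gene that DELLA proteins induce in Arabidopsis and that favours abscisic acid accumulation, read 6.14 and 6.01 in wild type and 6.71 and 6.50 in wrky43-1. Its groups did not overlap, and its difference of 0.54 (SE 0.14, 95% confidence interval 0.15 to 0.92, limma adjusted p = 0.23) was exceeded by 2.74% of all genes. SPT, a bHLH factor that represses germination in Arabidopsis, read 8.56 ± 0.065 in wild type and 8.60 ± 0.040 in wrky43-1 (SD, n = 2 each). That difference of 0.04 turned to -0.035 once all arrays had been given 1 common median, and to -0.0029 with quantile normalization. EXPA8, an expansin gene of cell wall loosening, had a difference of -0.01 (SE 0.26), with wild-type arrays at 5.18 and 4.49 on either side of both wrky43-1 arrays.

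Among transporters that carry gibberellin in Arabidopsis, NPF3.1 (AT1G68570) read 5.95 and 6.11 in wild type and 4.86 and 4.51 in wrky43-1. Its difference of -1.34 (SE 0.17, 95% confidence interval -1.81 to -0.88) was a 2.54-fold lower value, farther from 0 than that of the other 9 genes, with a limma adjusted p of 0.157. The other probe set of NPF3.1 read 4.32 ± 0.10 in wild type and 3.86 ± 0.021 in wrky43-1 (SD, n = 2 each), so both probe sets were lower and they disagreed on the size. SWEET13 read 2.75 and 2.37 in wild type and 2.34 on both wrky43-1 arrays, a difference of -0.22 (SE 0.17). SWEET14, its close relative, had a difference of 0.21 (SE 0.20) with overlapping groups. The values of both stood at or below the 22.6 percentile of their arrays.

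**Figure D2:**
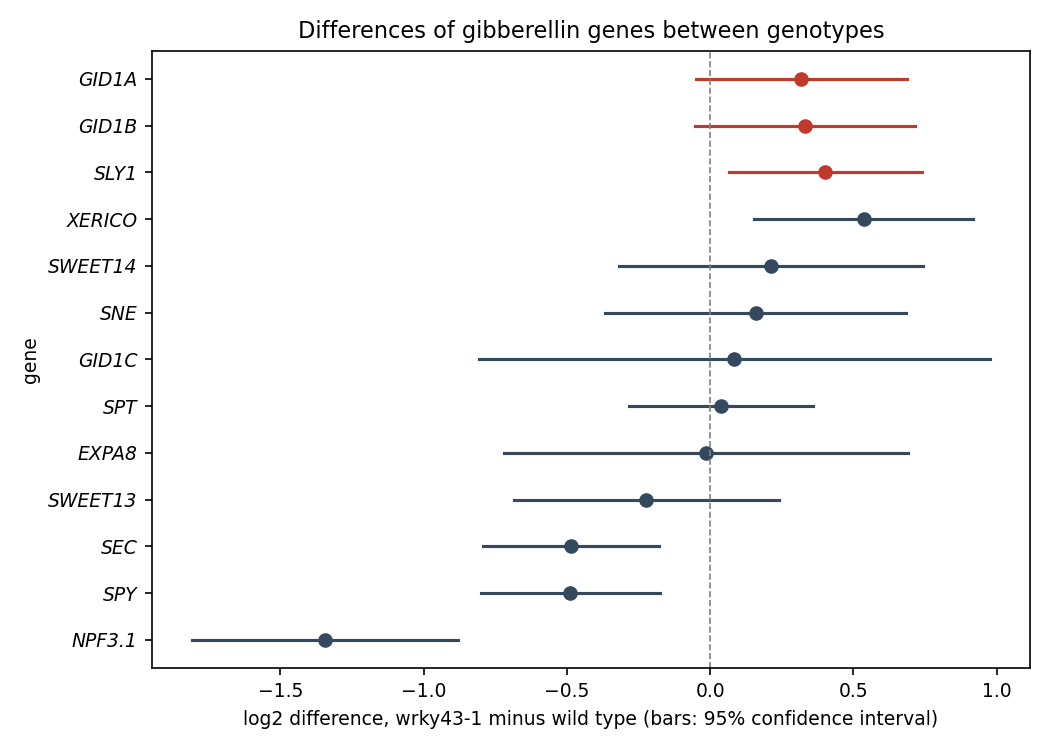
Log2 difference, wrky43-1 minus wild type (x axis), of GID1A, GID1B and SLY1 (red) and of the 10 other measured gibberellin genes (dark blue, sorted by difference), with the 95% confidence interval of the limma fit as bars. The intervals of SLY1 and XERICO lie above 0 and those of SPY, SEC and NPF3.1 below it, before any adjustment for the number of probe sets.

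The 3 genes are not long, and long genes tended to read lower. GID1A spans 2482 bp and GID1B 2244 bp in the reference, and the 6150 genes of 2000 to 4000 bp had a median difference of -0.02, with 45.9% reading higher. SLY1 spans 1204 bp. The 5597 genes of 1000 to 2000 bp had a median of 0.03, and 8.49% of them read higher at an unadjusted limma p under 0.05, compared with 5.45% of all genes. All 3 differences were thus above the median of genes of like length.

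**Figure D3:**
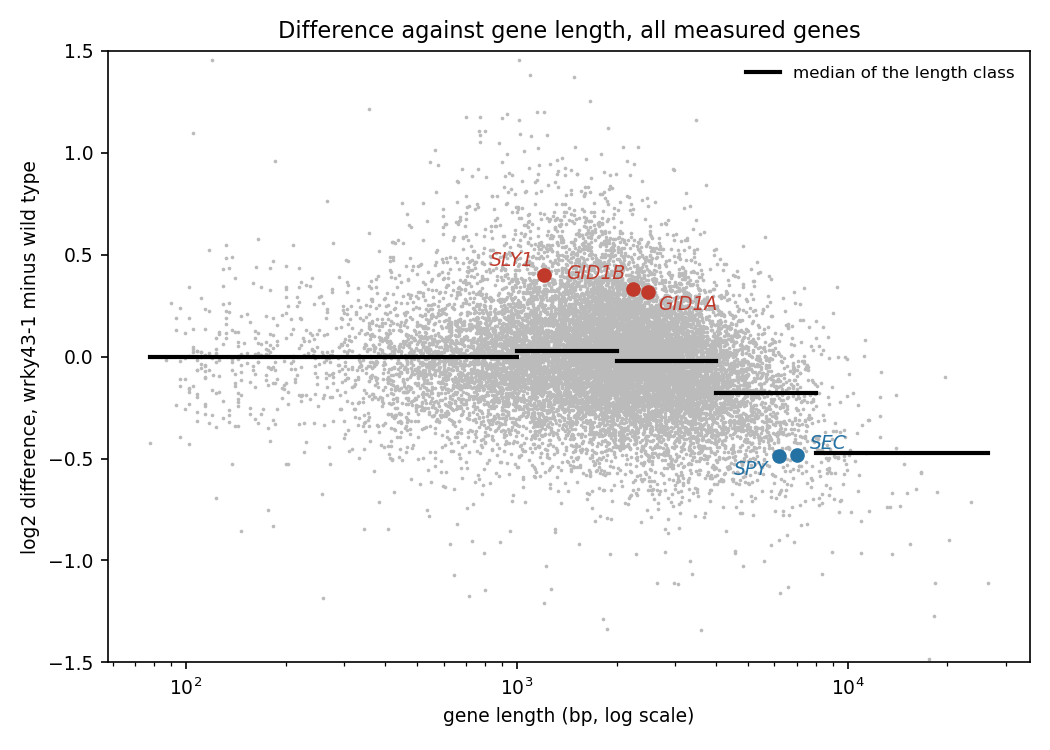
Log2 difference, wrky43-1 minus wild type (y axis, 12 genes beyond 1.5 in either direction not drawn), against gene length in bp on a log scale for 16411 genes (grey). Black lines are medians of length classes, red points GID1A, GID1B and SLY1, and blue points SPY and SEC. The red points lie above the medians of their classes (-0.02 and 0.03), and the blue points below that of theirs (-0.18).

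The genes beside the 3 loci were divided in direction. Of the 10 nearest measured genes around GID1A, 5 on each side, 6 read higher and 4 lower, with a median difference of 0.07. Around GID1B 4 read higher and 6 lower (median -0.07), and around SLY1 5 read higher and 5 lower (median -0.03).

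The arrays as a whole were similar. Medians over all probe sets differed by at most 0.088, but both wrky43-1 medians (4.427 and 4.402) lay above both wild-type medians (4.344 and 4.339). The 16411 genes measured did not share this shift, with a median difference of -0.01 and 47.4% reading higher. With all arrays given 1 common median over all probe sets, the differences were 0.245 for GID1A, 0.257 for GID1B and 0.328 for SLY1. Pearson's r across probe sets, which are not independent replicates, was 0.986 to 0.987 within and 0.978 to 0.981 between genotypes. Of 14 seed markers 2 were measured, the storage protein gene PAP85, at 12.63 to 12.89 over the 4 arrays, and the oleosin gene OLEO3, at 7.17 to 7.28. Both read lower in wrky43-1, by -0.19 and -0.09 as log2 differences, with 0 of the 2 at an unadjusted limma p under 0.05. For each, both wrky43-1 arrays lay below both wild-type arrays, as they did for 25.1% of all genes measured. Of 10 markers of germinated seedlings 6 were measured, and 2 read higher and 4 lower in wrky43-1 (median difference -0.08), 0 of them at an unadjusted limma p under 0.05. PRK was higher by 0.67 (3.53 and 3.92 in wild type, 5.05 and 3.74 in wrky43-1) and EXPA18 by 0.18, both with overlapping groups. The lower ones were LHCB4.1 (-0.35), EXPA7 (-0.21), SDP1 (-0.11) and ICL (-0.05), and the groups of LHCB4.1 and EXPA7 did not overlap. EXPA7 read only 2.62 to 2.95 over the 4 arrays and EXPA18 2.78 to 3.24. Without detection calls it is unknown whether either probe set measured signal above background. The levels of the 6 ran from 2.62 to 13.03, the highest being that of ICL, an enzyme of oil breakdown. ICL read 13.01 ± 0.0090 in wild type and 12.97 ± 0.091 in wrky43-1 (SD, n = 2 each). Whether the seeds of the 2 genotypes stood at the same stage of germination was not tested, and these few markers only describe the samples.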

How the data were processed

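The deposited table holds 1 value per probe set and array, which was read as log2 because the values lie between 1.18 and 14.27; how it was normalized and summarised from probes, and its scale, are not stated in the labels. Of 38408 probe sets, 16722 were paired with 1 gene by the platform's annotation and 16574 of these matched the reference (TAIR10.1), giving 16411 genes; 759 had several genes and 20927 none. The probe set with the highest mean stood for a gene. The genotypes were compared with limma 3.58.1 (lmFit, eBayes, R 4.3.3; two-sided, Benjamini-Hochberg over all probe sets, threshold 0.05; 2 residual and 2.34 prior degrees of freedom), which was tested on simulated data. The number of arrays limits the precision. Alternatives covered the replicate block, normalization, filters, variance prior, array weights, probe set choice and leaving out each array.

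Named were the 3 genes, each measured gene of the pathway lists and the 3 genes nearest to each member by root mean square distance. Members and lists were chosen with earlier results of these data known. Deviations of same-numbered replicates correlated at -0.026 over all probe sets, so no effect shared by replicate number was visible. This value cannot tell whether the arrays were paired by design. No sequence is printed.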

Additional observations from a re-analysis of the deposited data

How the results depend on the processing

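GID1A, GID1B and SLY1 kept a positive difference and an adjusted limma p above 0.05 in all 15, 14 and 15 alternatives run, with SLY1 lowest at 0.32 (quantile normalization) and adjusted p of 0.189 to 0.677, 0.276 to 0.69 and 0.116 to 0.543. A filter that removed the lowest 50 percent of probe sets also removed GID1B. At an unadjusted p under 0.05, SLY1 was lost in 7 of 15 alternatives, and GID1A, not under it as reported, was gained with the intensity trend (0.03). With the replicate block the 3 differences were the same and the adjusted p were 0.455, 0.455 and 0.353. Leaving out single arrays gave 0.23 to 0.40 for GID1A, 0.23 to 0.43 for GID1B and 0.33 to 0.48 for SLY1, the lone array being assumed to vary like the other group. In place of 1 probe set called higher there were 0 under the replicate block, 2 after centring, 6 above the 50 percent filter, 74 when the variance prior followed intensity, 12 if only those with 1 gene were tested, 7 if repeated values entered once, and 0 to 0 in the fits that lacked an array. In place of 0 called lower there were 30 for the intensity prior, 6 for those with 1 gene and 1 for repeated values entered once. The pathway genes reading higher, 5 of 10, were 3 above the 30 percent filter and 2 above the 50 percent filter, where fewer genes remained, and 3 to 6 in the fits that lacked an array, 3 being the count that lacked replicate 2 of wild type. Their median was -0.25 above the 50 percent filter and -0.365 to 0.054 in the fits that lacked an array, lowest without that same array. It was also negative with quantile normalization (-0.052, 4 of 10 higher), centring (-0.061, 4 of 10 higher) and the 30 percent filter (-0.014). The 10 pathway genes were put through the alternatives after the data had been seen, and 0 passed in any. SPT was -0.0029 with quantile normalization and -0.035 with centring; in the fits that lacked an array SPT ranged from -0.0077 to 0.084, EXPA8 from -0.36 to 0.33, GID1C from -0.37 to 0.54 and SNE from -0.062 to 0.38, each changing sign. The filters held fewer probe sets and the reduced fits fewer arrays, and the cause of these changes was not tested.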
